A study of Homo sapiens with 8 samples.

Results

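The genes described here are the integrin and laminin genes of UM-UC-3 and RT112, established human bladder cancer cell lines that received siRNA against the plasminogen activator inhibitor PAI-1. A fixed list of 36 gene symbols (25 integrin and 11 laminin genes) was looked up in the deposited expression table, and all 36 were found among its 27475 human gene entries. Cells of each line were transfected with 100 pmol of siRNA, a pool of 3 that either target PAI-1 (siPAI-1) or are scrambled as negative control (Scr), and RNA was sequenced after 72 h. The groups UM-UC-3 Scr, UM-UC-3 siPAI-1, RT112 Scr and RT112 siPAI-1 held 2 libraries each, numbered replicate 1 and 2, so that 8 libraries were compared. The labels name no other alteration of either line. The authors' methods give RPMI 1640 or DMEM as medium without saying which line had which, so that cell line and medium cannot be told apart. Each line stands for 1 tumour only.

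Integrins are receptors made of an alpha and a beta subunit that span the cell membrane and tie the extracellular matrix to the cytoskeleton. The alpha and beta partners decide the ligand, which is laminin, collagen, leukocyte counter-receptors or proteins that carry the arginine-glycine-aspartate (RGD) motif, such as fibronectin and vitronectin. Laminins are cross-shaped trimers of an alpha, a beta and a gamma chain and form the sheet of the basement membrane on which the urothelium rests, where the integrin alpha6 beta4 anchors the basal cells in hemidesmosomes. PAI-1 inhibits the plasminogen activators and binds vitronectin next to the site that the alphaV integrins hold, which is why adhesion receptors are of interest in a PAI-1 knock-down.

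The promoters of 5 members with large differences between the cell lines are printed here, so that the sequence in front of the genes can be read beside their levels. They were taken from a RefSeq promoter table on GRCh38.p14. For the alignment of the reads, GRCh38 is named without a patch release. The promoters run from 250 bases before to 50 bases after a transcript start. Each is written 5′ to 3′ on the strand of its gene. Capitals mark CAGGTG or its reverse complement CACCTG, an E-box that zinc finger repressors of epithelial genes can bind, and TGANTCA, the core of an AP-1 site, which reads the same on both strands. In LAMA3 a CACCTG and a TGANTCA match overlap. The windows lie at chr2:160200223-160200522 on the minus strand (ITGB6), chr18:23872770-23873069 on the plus strand (LAMA3), chr1:209652376-209652675 on the minus strand (LAMB3, 1 of 3 starts in the table), chr12:54419217-54419516 on the minus strand (ITGA5) and chr2:181457136-181457435 on the plus strand (ITGA4).
ITGB6: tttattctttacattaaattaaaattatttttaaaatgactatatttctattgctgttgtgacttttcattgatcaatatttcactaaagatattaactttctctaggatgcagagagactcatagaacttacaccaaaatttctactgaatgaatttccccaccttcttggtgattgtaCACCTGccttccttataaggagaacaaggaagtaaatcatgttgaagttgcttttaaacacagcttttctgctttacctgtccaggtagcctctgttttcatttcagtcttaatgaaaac
LAMA3: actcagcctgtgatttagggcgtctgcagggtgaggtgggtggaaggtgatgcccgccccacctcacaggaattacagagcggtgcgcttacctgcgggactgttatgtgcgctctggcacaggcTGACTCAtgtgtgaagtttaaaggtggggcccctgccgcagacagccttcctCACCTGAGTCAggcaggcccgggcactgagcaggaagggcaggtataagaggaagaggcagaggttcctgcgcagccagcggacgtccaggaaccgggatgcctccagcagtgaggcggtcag
LAMB3: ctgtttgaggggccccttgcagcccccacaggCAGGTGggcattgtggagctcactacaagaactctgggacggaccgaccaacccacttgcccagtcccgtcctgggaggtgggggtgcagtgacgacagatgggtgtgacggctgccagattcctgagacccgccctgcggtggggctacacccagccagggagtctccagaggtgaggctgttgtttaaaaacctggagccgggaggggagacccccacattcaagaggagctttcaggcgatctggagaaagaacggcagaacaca
ITGA5: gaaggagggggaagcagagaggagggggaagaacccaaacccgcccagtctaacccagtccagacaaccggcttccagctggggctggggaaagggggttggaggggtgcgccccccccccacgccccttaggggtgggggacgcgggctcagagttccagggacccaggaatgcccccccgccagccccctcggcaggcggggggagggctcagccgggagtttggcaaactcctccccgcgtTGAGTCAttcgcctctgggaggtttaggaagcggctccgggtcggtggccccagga
ITGA4: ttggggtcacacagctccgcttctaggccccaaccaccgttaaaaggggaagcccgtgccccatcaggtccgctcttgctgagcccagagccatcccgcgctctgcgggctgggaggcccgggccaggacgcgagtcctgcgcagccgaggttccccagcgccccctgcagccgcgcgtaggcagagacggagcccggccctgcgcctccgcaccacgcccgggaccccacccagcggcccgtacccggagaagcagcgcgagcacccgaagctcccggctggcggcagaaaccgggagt
CAGGTG occurred once in the windows of ITGB6, LAMA3 and LAMB3, which were higher in RT112, and was not present in those of ITGA5 and ITGA4, which were higher in UM-UC-3. Counted by gene, with a match in any of its windows, 24.1% of the 27305 genes in the table held CAGGTG, against 8 of the 26 members that had a promoter. Among members called different between the lines in the Scr libraries, 5 of 12 higher in RT112 and 2 of 6 higher in UM-UC-3 held it, the latter being ITGA11 and ITGB5. TGANTCA was found in 9.37% of the genes and in 3 of the 26 members (ITGA5, LAMA3 and LAMB3, in the last at another of its starts than the one printed). The LAMA3 window surrounds the start of a shorter transcript, which lies 183.6 kb inside the annotated gene. The deposited values are per gene and do not separate the transcripts. A match describes letters only, and binding was not measured in these data.

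The libraries held an estimated 29.3 to 34.2 M reads each (M for mega). All levels are TPM, in which the reads of each gene are corrected for transcript length and every library is scaled to a fixed total, so that levels can be compared between genes. Keratins and other epithelial markers reached a mean of 1 TPM for 9 of 9 genes in RT112 and 5 of 9 in UM-UC-3, and summed to between 11600 and 13387 TPM against 220 to 239 TPM. All 6 mesenchymal markers reached 1 TPM in UM-UC-3 (2960 to 3256 TPM in sum) and 3 of 6 in RT112 (57.2 to 97.4 TPM). VIM alone gave 2852 to 3142 TPM of the UM-UC-3 sums and 6.04 to 8.09 TPM in RT112, while SNAI2 (16.4 and 15.7 TPM in UM-UC-3 Scr, 68.2 and 70.4 TPM in RT112 Scr) and CDH2 (10.6 and 9.22 TPM, 18.2 and 20.6 TPM) were higher in RT112. Of 7 urothelial markers, 5 reached 1 TPM in RT112 and 1 in UM-UC-3, so that the urothelial origin is poorly visible in UM-UC-3. Replicate 1 of RT112 siPAI-1 stood somewhat apart: of 19 members whose RT112 mean reached 1 TPM, 11 (57.9%) had their lowest RT112 value in it, against 29% of 12198 genes. The authors describe 3 independent replicate experiments of the knock-down, while 2 libraries per group were available here. The labels only number the libraries and do not tie them to these experiments or to separate cultures. The p-values therefore measure only the spread between these libraries. In such bulk RNA, fewer cells with a transcript and less of it per cell cannot be told apart.

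Of the 36 members, 25 reached a mean of 1 TPM in at least 1 group and 11 stayed under 1 TPM in all groups. The number above 1 TPM was the same in both lines with Scr, 20 each, but the members in RT112 were spread over more high levels: 10 members reached 100 TPM in RT112 Scr and 3 in UM-UC-3 Scr. These 3 were ITGB1, ITGA3 and ITGB5. All integrin genes together came to between 2668 and 2799 TPM in the UM-UC-3 libraries and between 1918 and 2166 TPM in the RT112 libraries. All laminin genes on the list summed to between 276 and 307 TPM in the former and to between 712 and 808 TPM in the latter. The heat map of all members shows the same split between the lines by role.

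**Figure D1:**
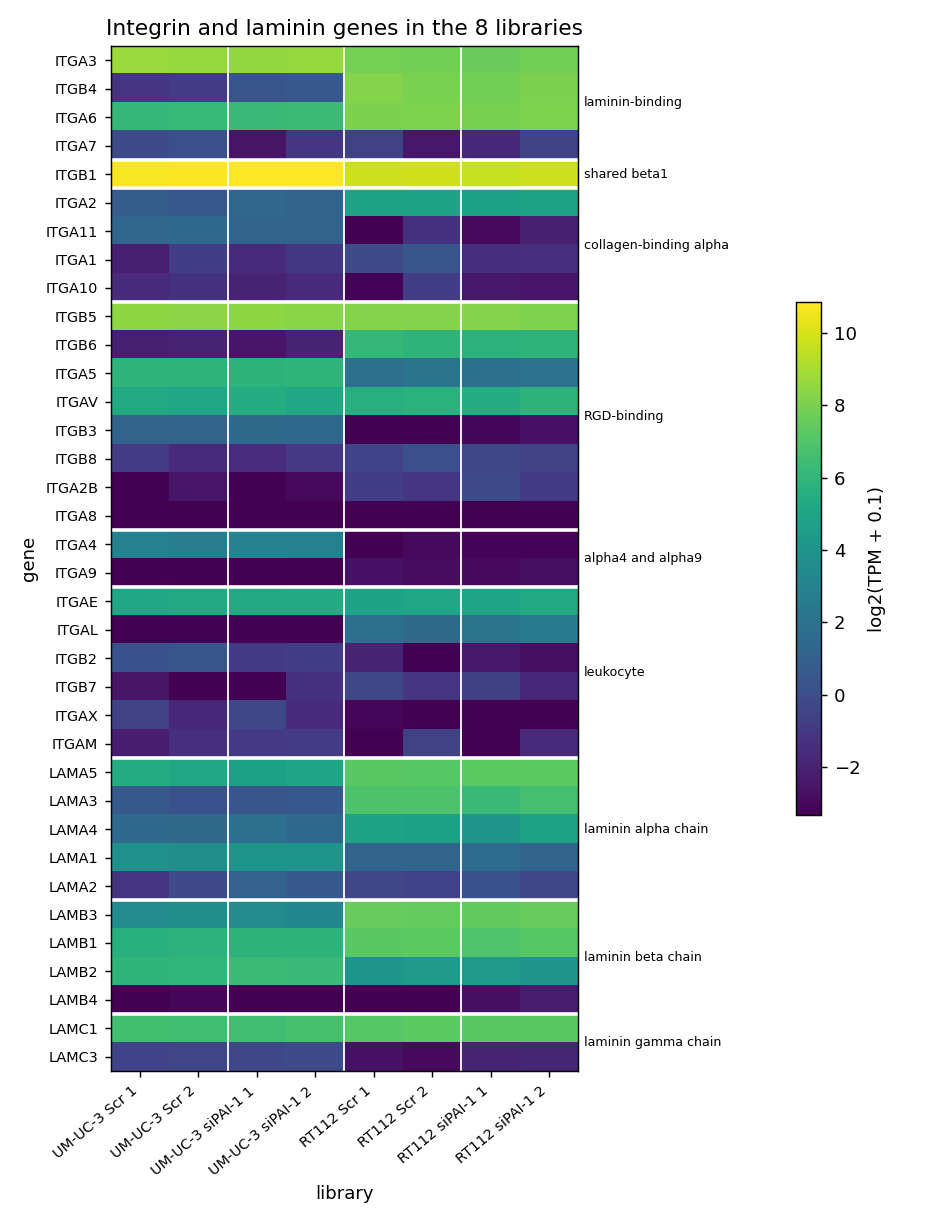
Level of the 36 integrin and laminin genes as log2(TPM + 0.1) in the 8 libraries (columns, named by group and replicate), with genes in rows grouped by role and ordered by their highest group mean. ITGB1 is the brightest row in every library, and ITGB4, ITGB6 and LAMA3 are dark in the 4 UM-UC-3 libraries and bright in the 4 RT112 libraries. ITGA5 and ITGA4 are each brighter in the UM-UC-3 libraries than in those of RT112.

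The lines also differed in the make-up of each family. ITGB1, the beta subunit shared by most matrix receptors, made up 82.7% to 84.7% of the beta subunit TPM in UM-UC-3 libraries and 57.2% to 59.2% in RT112 libraries. ITGB5 took 15% to 17.1% in UM-UC-3 and 18.8% to 21.6% in RT112. ITGB4, which pairs only with alpha6, took 17% to 19.3% in RT112, a range that overlapped that of ITGB5, and at most 0.0616% in UM-UC-3. Among alpha subunits ITGA3 led the UM-UC-3 libraries with 62.4% to 66.4% of the TPM, while ITGA6 led those of RT112 with 42.9% to 45.3% and ITGA3 followed with 35.0% to 38.3%. The alpha subunits summed to nearly the same level in both lines, 607 to 635 TPM (UM-UC-3) and 553 to 644 TPM (RT112), with overlapping ranges. The laminin alpha chains summed to between 48.4 and 61.9 TPM in UM-UC-3 and between 253.8 and 297.2 TPM in RT112, and the beta chains to between 121.4 and 148.2 TPM and between 309.9 and 359.6 TPM. LAMA5 was the highest laminin alpha gene in every library (49.4% to 70.7%), with LAMA1 next in UM-UC-3 libraries (21.9% to 32.5%) and LAMA3 next in RT112 libraries (29.7% to 40.1%). Among beta chains LAMB2 led in UM-UC-3 with 47.7% to 54.5% and LAMB3 led in RT112 with 51.1% to 53.9%, and the share of LAMB1 overlapped between the lines (37.9% to 42.1% and 39.9% to 43.4%). These shares are descriptions of each library and were not tested.

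**Figure D2:**
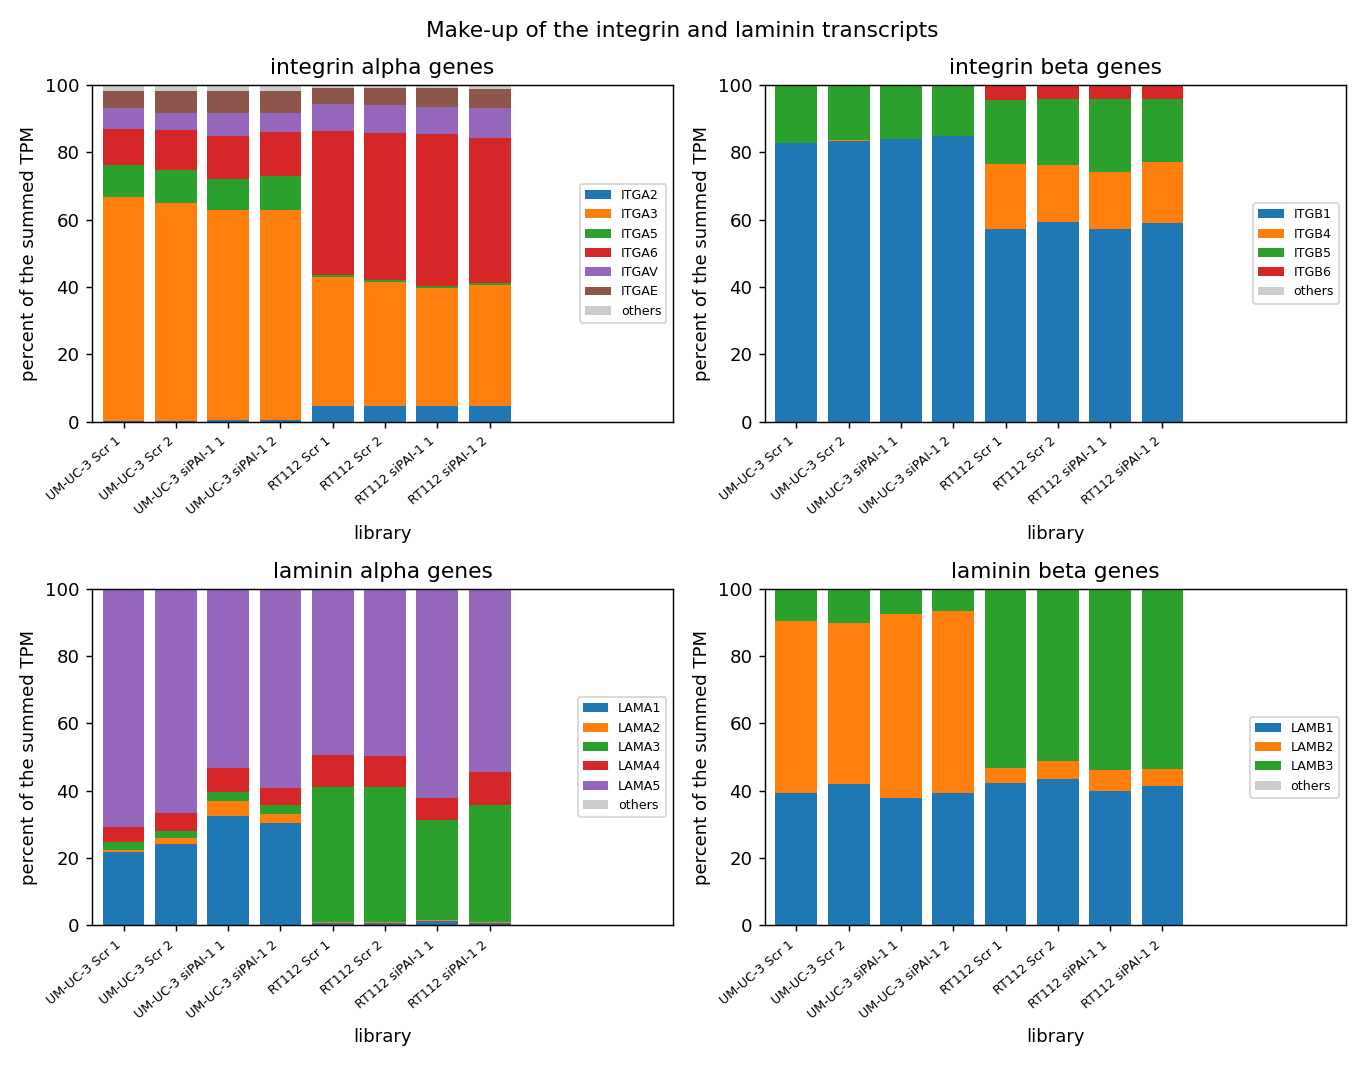
Share of each gene in the summed TPM of its family (percent, stacked bars) for integrin alpha, integrin beta, laminin alpha and laminin beta genes in each of the 8 libraries. Genes that reach 4% in at least 1 library have a colour of their own and the rest are grey. ITGB4 and ITGB6 appear as visible bands in the RT112 libraries only, and LAMB2 is exchanged for LAMB3 between the lines while LAMB1 keeps its share.

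The comparison of RT112 with UM-UC-3 in the Scr libraries asked which adhesion genes set the lines apart without knock-down. ITGB4, ITGB6, LAMA3, LAMB3 and ITGA2 were far higher in RT112, and ITGA5, ITGA4, ITGB3 and LAMA1 far higher in UM-UC-3. By limma on the log2(TPM + 0.1) scale, with p adjusted after Benjamini-Hochberg over 19201 genes, 26 of 35 tested members were called at an adjusted p under 0.05, 14 higher in RT112 and 12 higher in UM-UC-3. The background was high, since 51.6% of all genes tested were called, 25.3% higher in RT112 and 26.3% higher in UM-UC-3. With the added demand of a 4-fold difference, 16 of 35 members were called against 18.7% of all genes. The libraries of the lines did not overlap for 31 of 35 members, against 72.3% of all genes. Laminin members were called in 9 of 11 cases, 6 of them higher in RT112, and integrin members in 17 of 24, 8 higher in RT112 and 9 higher in UM-UC-3. The median log2 fold change (RT112 over UM-UC-3) was 0.16 over the members tested and -0.057 over all genes. Fold changes here are on the log2(TPM + 0.1) scale, which understates those of genes with low values.

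Among the laminin-binding subunits, the hemidesmosome pair was the high one in RT112. ITGB4 (ENSG00000132470.13), the long-tailed beta subunit that links to keratin, had 0.36 and 0.46 TPM in UM-UC-3 Scr and 300.4 and 259 TPM in RT112 Scr. The former correspond to an estimated 45 and 59 reads, so the gene was detected in UM-UC-3, at a mean 683 times lower than in RT112. Its log2 fold change of 9.10 (SE 0.16, limma adjusted p = 0.000242) was the largest of all members. ITGA6 (ENSG00000091409.14), the alpha partner of ITGB4 and of ITGB1, had 68.0 and 71.0 TPM against 263 and 275 TPM, a log2 fold change of 1.95 (SE 0.05, limma adjusted p = 0.000305). ITGA3, the subunit of the alpha3 beta1 laminin receptor, went the other way with 422 and 393 TPM in UM-UC-3 Scr and 235 and 232 TPM in RT112 Scr (log2 fold change -0.80, SE 0.05, limma adjusted p = 0.00106). ITGB1 itself, the common partner, had 1681 and 1730 TPM in UM-UC-3 Scr against 888 and 897 TPM in RT112 Scr (log2 fold change -0.93, SE 0.04, limma adjusted p = 0.000472). None of these 4 genes overlapped between the lines. ITGA7, the laminin receptor of muscle, had 0.83 and 1.01 TPM in UM-UC-3 Scr and 0.56 and 0.09 TPM in RT112 Scr, without overlap and without a call (limma adjusted p = 0.151).

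ITGA2, the alpha subunit of the epithelial collagen receptor alpha2 beta1, was the collagen-binding subunit that set RT112 apart. It had 1.74 and 1.41 TPM in UM-UC-3 Scr and 28.3 and 29.2 TPM in RT112 Scr, 18.3 times as much in the mean (log2 fold change 4.11, SE 0.16, limma adjusted p = 0.000457). ITGA11, a collagen receptor subunit of fibroblasts, was present at 2.42 and 2.79 TPM in UM-UC-3 Scr and was listed at 0 and 0.30 TPM in RT112 Scr. Its call (log2 fold change -3.75, SE 0.76, limma adjusted p = 0.0189) was carried by a low gene with wide spread in RT112. ITGA1 lies 30.1 kb from ITGA2 on chromosome 5 (GRCh38.p14) and had 0.13 and 0.51 TPM in UM-UC-3 Scr and 0.86 and 1.23 TPM in RT112 Scr, without overlap but also without a call (limma adjusted p = 0.0945). ITGA10 stayed between 0.01 and 0.49 TPM in all libraries.

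Among RGD-binding subunits, ITGB6 and ITGA5 were at opposite poles. ITGB6 (ENSG00000115221.10), the epithelial partner of alphaV that activates latent TGF-beta, had 0.13 and 0.16 TPM in UM-UC-3 Scr and 69.2 and 59.7 TPM in RT112 Scr. Its log2 fold change was 8.04 (SE 0.19, limma adjusted p = 0.000274). ITGA5 (ENSG00000161638.10), the alpha subunit of the fibronectin receptor alpha5 beta1, had 60.1 and 59.9 TPM in UM-UC-3 Scr and 3.69 and 4.22 TPM in RT112 Scr, a mean 15.2 times higher in UM-UC-3 (log2 fold change -3.89, SE 0.11, limma adjusted p = 0.000306). Both genes were far from overlap.

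The vitronectin receptors shared their alpha subunit and 1 beta subunit between the lines. ITGB3, the beta subunit of alphaV beta3, had 2.23 and 2.15 TPM in UM-UC-3 Scr and was listed at 0 in both RT112 Scr libraries, so that no fold is given (limma adjusted p = 0.00098). ITGAV, the common alphaV subunit, had 39.2 and 32.2 TPM in UM-UC-3 Scr and 49.4 and 52.0 TPM in RT112 Scr (log2 fold change 0.51, SE 0.12, limma adjusted p = 0.0273). ITGB5, its widely used partner, had 348 and 337 TPM against 294 and 298 TPM (log2 fold change -0.21, SE 0.04, limma adjusted p = 0.0189). These were the smallest called differences among the members with Scr, although neither gene overlapped. ITGB8, another partner of alphaV, ranged from 0.24 to 1.01 TPM over all libraries. ITGA2B, the platelet subunit, was at most 0.83 TPM, and ITGA8 was listed at 0 in all 8 libraries and so could not be tested.

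The subunits best known from leukocytes were low in both lines, with 1 exception. ITGA4, part of the receptor for VCAM-1 and fibronectin, had 7.09 and 6.24 TPM in UM-UC-3 Scr, and in RT112 Scr it was listed at 0 and at 0.03 TPM, the latter an estimated 4 reads. The fitted log2 fold change of -5.89 (SE 0.31, limma adjusted p = 0.000713) depends on the pseudocount. ITGAL, the alpha subunit of the lymphocyte receptor for ICAM-1, was listed at 0 in all 4 UM-UC-3 libraries and had 3.46 and 2.94 TPM in RT112 Scr (limma adjusted p = 0.000863), an estimated 532 and 441 reads. Its partner ITGB2 showed the reverse, with 1.09 and 1.17 TPM in UM-UC-3 Scr and 0.16 and 0 TPM in RT112 Scr (log2 fold change -2.93, SE 0.57, limma adjusted p = 0.0165). ITGAE, the exception, is the subunit of intraepithelial lymphocytes and had 32.8 and 38.2 TPM in UM-UC-3 Scr and 28.1 and 32.1 TPM in RT112 Scr, again without overlap and without a call (limma adjusted p = 0.188). ITGB7, the partner of alphaE, was at 0.07 and 0 TPM and at 0.71 and 0.35 TPM. ITGAX and ITGAM, neighbours 22.3 kb apart on chromosome 16, stayed below 1 TPM in every library, and ITGA9 reached at most 0.06 TPM. Of 8 leukocyte markers, CORO1A and CD68 were the only ones to reach a mean of 1 TPM in either line. The 8 summed to 275 to 285 TPM in UM-UC-3 and 16.9 to 23.6 TPM in RT112. CD68, a lysosomal protein of macrophages, alone gave 272 to 279 TPM and 14.2 to 19.5 TPM of these sums, and their part in the levels of the leukocyte subunits was not tested.

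The laminin chains that were higher in RT112 included all of the alpha chains but LAMA1 and LAMA2. LAMA3 (ENSG00000053747.15), the alpha chain of epithelial anchoring laminins, had 1.51 and 1.10 TPM in UM-UC-3 Scr and 119 and 117 TPM in RT112 Scr, a mean 90.1 times higher (log2 fold change 6.41, SE 0.18, limma adjusted p = 0.000305). LAMB3 (ENSG00000196878.12), its beta partner, had 11.5 and 13.5 TPM against 188 and 184 TPM (log2 fold change 3.89, SE 0.10, limma adjusted p = 0.00028). Both chains were high in each RT112 library and low in each UM-UC-3 library. LAMA4, found around vessels and muscle, had 2.73 and 2.88 TPM against 28.3 and 26.8 TPM (log2 fold change 3.25, SE 0.12, limma adjusted p = 0.000399). LAMA5, the main alpha chain of adult epithelial basement membranes, had 43.8 and 35.0 TPM against 147 and 145 TPM (log2 fold change 1.90, SE 0.12, limma adjusted p = 0.00102). The widely expressed chains also leaned to RT112, with LAMB1 at 47.6 and 56.0 TPM against 149 and 156 TPM, and LAMC1 at 95.5 and 89.7 TPM against 146 and 157 TPM. Their log2 fold changes of 1.56 (SE 0.10, limma adjusted p = 0.000955) and 0.71 (SE 0.07, limma adjusted p = 0.00239) were smaller than those of LAMA3 and LAMB3.

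UM-UC-3 held more of LAMA1, LAMB2 and LAMC3. LAMA1, the alpha chain of embryonic basement membranes, had 13.5 and 12.7 TPM in UM-UC-3 Scr and 2.17 and 2.36 TPM in RT112 Scr (log2 fold change -2.48, SE 0.15, limma adjusted p = 0.000873). LAMB2, the beta chain of the kidney filter and the neuromuscular junction, had 62.3 and 63.5 TPM against 16.1 and 19.8 TPM (log2 fold change -1.81, SE 0.12, limma adjusted p = 0.00107). LAMC3 was low throughout, with 0.61 and 0.68 TPM in UM-UC-3 Scr and 0.06 and 0.03 TPM in RT112 Scr (log2 fold change -2.37, SE 0.31, limma adjusted p = 0.00536). LAMA2, the muscle alpha chain, overlapped between the lines with Scr at 0.36 and 0.89 TPM against 0.70 and 0.61 TPM. LAMB4, which lies 8.5 kb from LAMB1 on chromosome 7, was at most 0.11 TPM.

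The same contrast was repeated in the siPAI-1 libraries, which share no library with the Scr comparison. There limma called 24 of 35 members, 12 in each direction, against 52.2% of 19359 genes, 26.2% higher in RT112 and 26.1% higher in UM-UC-3. All 24 had been called in the same direction with Scr, which is 92.3% of the Scr calls and 100% of the siPAI-1 calls, and ITGAV and ITGB7 were called with Scr alone. ITGB6 (log2 fold change 8.02, SE 0.27), LAMA3 (5.92, SE 0.18), LAMB3 (4.08, SE 0.12) and ITGA5 (-3.88, SE 0.12) were close to their values with Scr. ITGB4 stood at 7.52 (SE 0.12) in place of 9.10. Without RT112 siPAI-1 replicate 1 the log2 fold changes were 8.08 for ITGB6, 6.12 for LAMA3, 4.16 for LAMB3, -3.79 for ITGA5 and 7.62 for ITGB4. In the levels with siPAI-1, 4 of 35 members tested overlapped between the lines (ITGA1, ITGA7, ITGAV and ITGB7). Over all genes tested, 73.7% did not overlap. ITGA3 had 381 and 390.2 TPM in UM-UC-3 siPAI-1 against 193 and 232 TPM in RT112 siPAI-1. ITGA5 had 56.1 and 62.1 TPM against 3.69 and 4.17 TPM, and ITGB6 had 0.08 and 0.17 TPM against 54.9 and 59.7 TPM. ITGAV, which had not overlapped with Scr, overlapped here with 43.3 and 34.5 TPM against 43.1 and 57.9 TPM. ITGB5 (344 and 327 against 295 and 276 TPM) and ITGAE (39.0 and 40.7 against 31.0 and 37.1 TPM) were higher in UM-UC-3 without overlap. ITGA2 had 2.5 and 2.27 TPM against 25.5 and 29.1 TPM, whereas ITGA4 had 7.72 and 7.41 TPM against 0.01 TPM in both RT112 libraries. The low ITGB3 (2.94 and 2.68 against 0.02 and 0.06 TPM) and ITGA11 (2.23 and 2.20 against 0.03 and 0.14 TPM) were again found in UM-UC-3. LAMA1 had 15.7 and 15.8 TPM against 3.03 and 2.24 TPM. LAMB1 (56.1 and 57.5 against 124 and 146 TPM) and LAMC1 (90.03 and 108 against 148 and 148 TPM) were higher in RT112, as were LAMB3, at 11.3 and 9.62 TPM in UM-UC-3 siPAI-1, LAMA3, at 1.27 and 1.40 TPM there, and LAMA4, at 3.56 and 2.55 TPM. LAMB2 had 19.1 and 17.3 TPM in RT112 siPAI-1, LAMA2 had 1.08 and 0.71 TPM, and ITGB2 had 0.09 and 0.05 TPM. ITGA1 was at 0.23 and 0.40 TPM in UM-UC-3 siPAI-1. With 2 libraries in a group, leaving out each of the 4 Scr libraries in turn kept the calls of 15 of the 26 members, and 11 lost theirs in at least 1 of these fits: ITGA11, ITGA2B, ITGAV, ITGAX, ITGB2, ITGB5, ITGB7, LAMA5, LAMB1, LAMB2 and LAMC1. None changed its direction.

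**Figure D3:**
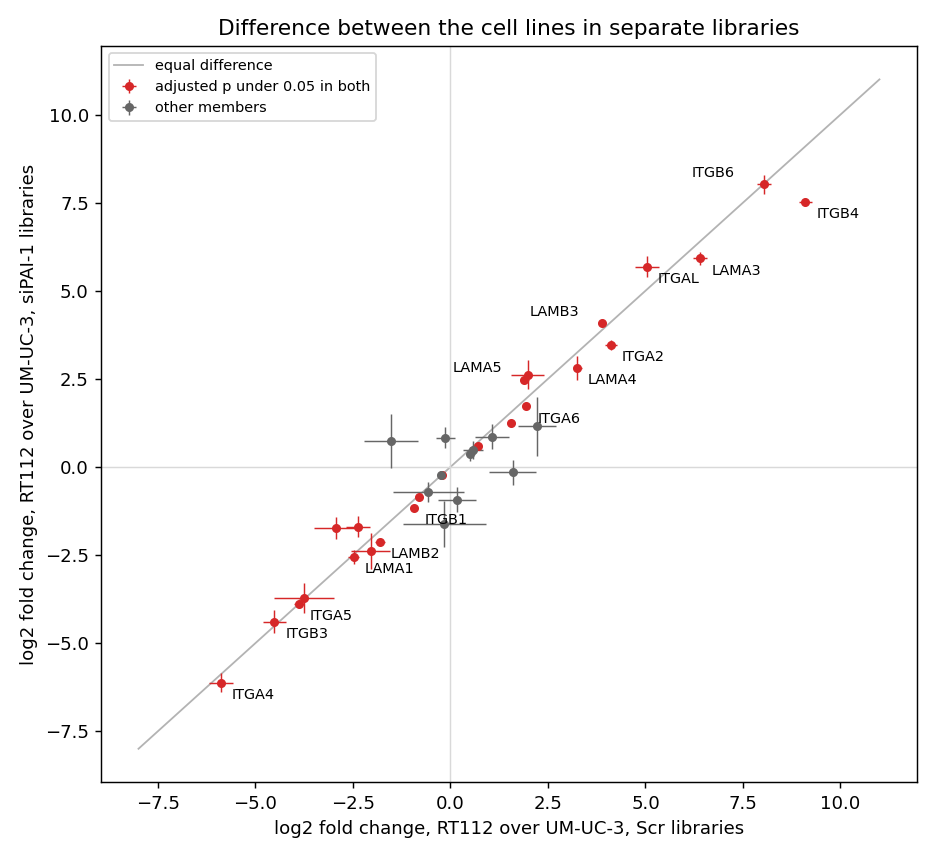
Log2 fold change of RT112 over UM-UC-3 for the 35 members tested in the Scr libraries (x axis) and in the siPAI-1 libraries (y axis), on the log2(TPM + 0.1) scale, with the standard error as bars, 15 members named and the line of equal differences. Red points had a limma adjusted p under 0.05 in both comparisons. ITGB6 and LAMB3 lie near the line, ITGB4 lies below it, and the values of ITGAL and ITGB3 depend on the pseudocount because 1 line is at or near 0.

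Since integrins work in pairs and laminins in trimers, the level of the lowest subunit was also read for each complex, as the most that its transcripts could provide in equal parts. It says nothing of protein or assembly. Each complex was read alone, so a shared subunit such as ITGAV or ITGA6 counts in full in every complex that holds it. Of 23 integrin pairs, 5 had a lowest subunit of at least 10 TPM in UM-UC-3 Scr and 7 in RT112 Scr, and 9 reached 1 TPM in each line. The alpha6 beta4 pair was set by ITGB4 in UM-UC-3 Scr at 0.36 and 0.46 TPM, while in RT112 Scr its lowest subunit was at 263 and 259 TPM. For alphaV beta6 the values were 0.13 and 0.16 TPM against 49.4 and 52.0 TPM, and for alpha5 beta1 they were 60.1 and 59.9 TPM against 3.69 and 4.22 TPM. The pair alphaV beta5, which binds vitronectin, was limited by ITGAV in both lines and had 39.2 and 32.2 TPM against 49.4 and 52.0 TPM. Of 11 laminin trimers, 4 reached 10 TPM in each line. Laminin-511 had 43.8 and 35.0 TPM in UM-UC-3 Scr and 146 and 145 TPM in RT112 Scr, laminin-111 had 13.5 and 12.7 TPM against 2.17 and 2.36 TPM, and laminin-411 had 2.73 and 2.88 TPM against 28.3 and 26.8 TPM.

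Knock-down of PAI-1 in UM-UC-3 was compared with Scr to see whether the adhesion genes moved with it. No member passed the adjusted test. limma called 0 of 33 members and 0 of 18528 genes at an adjusted p under 0.05. Before adjustment, 7 of 33 members had a p under 0.05 (4 higher and 3 lower with siPAI-1), against 6.01% of all genes (2.6% higher and 3.41% lower). The siPAI-1 and Scr libraries did not overlap for 19 of 33 members, 13 higher and 6 lower, against 32.2% of all genes (15.1% higher and 17.1% lower). The median log2 fold change (siPAI-1 over Scr) was 0.11 over the members and -0.005 over all genes.

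The 7 members were ITGB4, LAMB2, ITGA6, LAMA2, LAMA5, ITGA7 and ITGB2, and their limma adjusted p was between 0.791 and 0.815. ITGB4 was at 0.36 and 0.46 TPM in the Scr libraries and at 1.17 and 1.34 TPM in the siPAI-1 libraries, or an estimated 45 and 59 against 161 and 162 reads (log2 fold change 1.41, SE 0.40, unadjusted p = 0.0163, limma adjusted p = 0.791). Both siPAI-1 libraries were above both Scr libraries, and all 4 remained below every RT112 library by a wide margin. LAMB2 had the smallest p of the members, with 62.3 and 63.5 TPM against 80.8 and 79.1 TPM (log2 fold change 0.35, SE 0.06, unadjusted p = 0.00168, limma adjusted p = 0.791). ITGA6 had 68.0 and 71.0 TPM against 77.4 and 82.1 TPM (log2 fold change 0.20, SE 0.06, unadjusted p = 0.0272, limma adjusted p = 0.791). LAMA5 was lower, with 43.8 and 35.0 TPM against 25.7 and 30.9 TPM (log2 fold change -0.47, SE 0.15, unadjusted p = 0.0237, limma adjusted p = 0.791). Each of these genes was apart between Scr and siPAI-1 in UM-UC-3. The low members LAMA2 (0.36 and 0.89 against 2.13 and 1.46 TPM), ITGB2 (1.09 and 1.17 against 0.43 and 0.49 TPM) and ITGA7 (0.83 and 1.01 against 0.07 and 0.38 TPM) also did not overlap. The abundant ITGB1, with 1681 and 1730 against 1833 and 1843 TPM, had a log2 fold change of 0.11 (SE 0.05, unadjusted p = 0.0879, limma adjusted p = 0.858).

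In RT112 the knock-down also gave 0 of 35 members and 0 of 18437 genes at a limma adjusted p under 0.05. Before adjustment, 2 members had a p under 0.05, ITGA1 and LAMA3, against 5.77% of all genes. LAMA3, at 119 and 117 TPM in the Scr libraries, was at 75.4 and 99.5 TPM in the siPAI-1 libraries (log2 fold change -0.44, SE 0.14, unadjusted p = 0.0287, limma adjusted p = 0.838). The siPAI-1 libraries were lower without overlap, but replicate 1 gave much of the difference, and without it the log2 fold change was -0.24. ITGA1 had 0.86 and 1.23 TPM against 0.26 and 0.27 TPM, or an estimated 189 and 262 against 66 and 61 reads (log2 fold change -1.63, SE 0.42, unadjusted p = 0.0132, limma adjusted p = 0.838). Without siPAI-1 replicate 1 the log2 fold change of ITGA1 was -1.61. The RT112 groups did not overlap for 10 of 35 members, 6 higher and 4 lower, against 32.7% of all genes (18% higher and 14.7% lower). The median log2 fold change was -0.05 over the members and 0.014 over all genes. Of the 19 members with a mean of at least 1 TPM, 14 had a value below 0. The share of all genes below 0 was not counted. Of these 14, ITGA2, ITGA5, ITGA6, ITGAV, LAMA4 and LAMB3 were above 0 without siPAI-1 replicate 1. LAMA1 and LAMB2 went from above to below 0 in that reading. The members that were lower without overlap were ITGA1, LAMA3, ITGB1 and LAMB1. ITGB1 had 888 and 897 TPM with Scr against 781 and 867 TPM (log2 fold change -0.12, SE 0.07, limma adjusted p = 0.838). LAMB1 had 149 and 156 TPM against 124 and 146 TPM (log2 fold change -0.18, SE 0.09, limma adjusted p = 0.838). Without siPAI-1 replicate 1 the log2 fold changes were -0.042 for ITGB1 and -0.065 for LAMB1. Of the higher members, ITGAL was at 3.46 and 2.94 TPM in the Scr libraries and at 4.50 and 5.59 TPM in the siPAI-1 libraries (log2 fold change 0.64, SE 0.24, unadjusted p = 0.0511, limma adjusted p = 0.838), and 0.79 without replicate 1. The subunits and chains that set RT112 apart had siPAI-1 values that overlapped those with Scr in several cases, among them ITGB4 (232 and 267 TPM), ITGA6 (250.1 and 277 TPM), LAMB3 (167 and 189 TPM) and LAMA4 (16.6 and 28.6 TPM). LAMA5 had 158 and 157 TPM (log2 fold change 0.11, SE 0.05, unadjusted p = 0.0867, limma adjusted p = 0.838), and its log2 fold change was 0.10 without replicate 1.

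**Figure D4:**
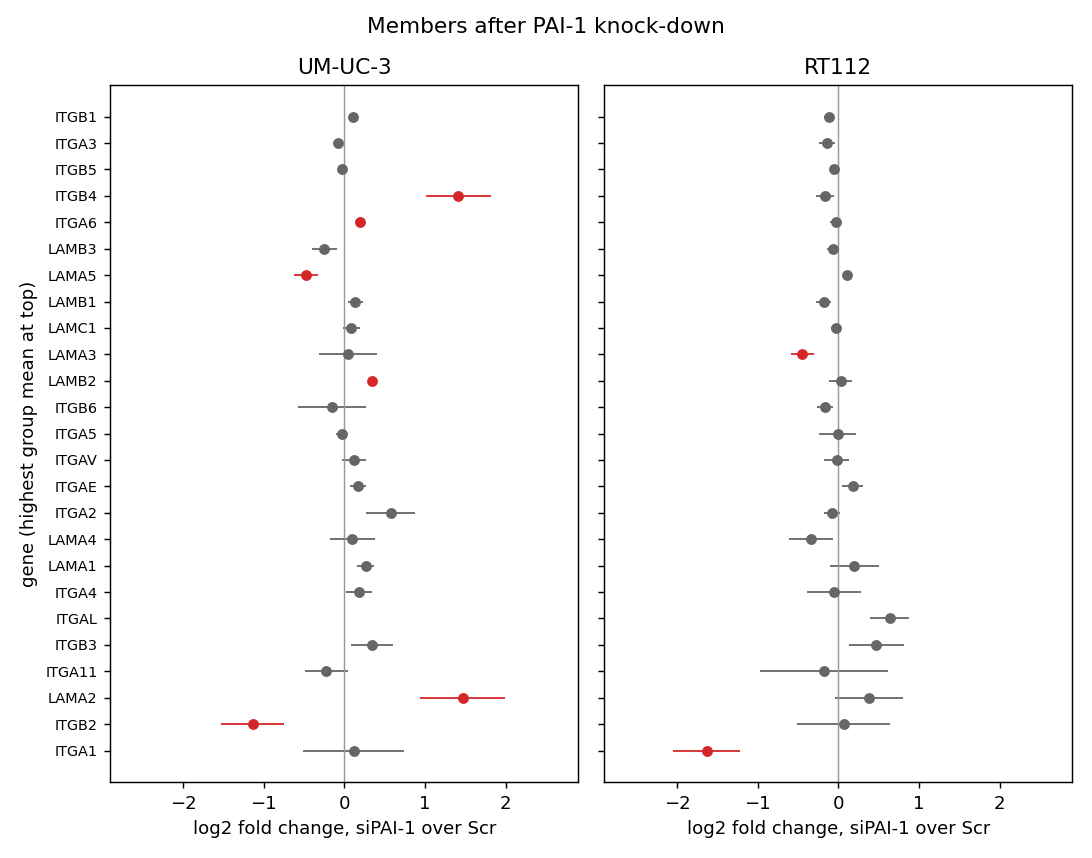
Log2 fold change of siPAI-1 over Scr on the log2(TPM + 0.1) scale, with the standard error as bars, for the members that reach a group mean of 1 TPM, in UM-UC-3 (left) and RT112 (right), ordered by their highest group mean. Red points had an unadjusted limma p under 0.05, 6 of those shown for UM-UC-3 and 2 for RT112, of which none passed the adjustment over all genes. ITGAL has no point in UM-UC-3, where it was listed at 0 in every library.

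A test of the difference between the effects in the lines, as an interaction term over all 8 libraries, also left 0 of 35 members and 0 of 20274 genes at a limma adjusted p under 0.05. Before adjustment, 6 members had a p under 0.05 (ITGB4, LAMA5, ITGA2, ITGB1, LAMB4 and ITGA6), against 6.76% of all genes. ITGB4 had the smallest p of the members: its effect in RT112 minus that in UM-UC-3 was -1.58 (SE 0.21, unadjusted p = 0.000186, limma adjusted p = 0.365). For LAMA5 the effect was -0.47 in UM-UC-3 against 0.11 in RT112, a difference of 0.58 (SE 0.18, limma adjusted p = 0.642). Without RT112 siPAI-1 replicate 1 the differences were -1.48 for ITGB4 (limma adjusted p = 0.209) and 0.58 for LAMA5.

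Genes that work with integrins and laminins were read from lists. Of 33 cytoplasmic partners, which link integrin tails to actin and carry their signals, 24 were called between the lines with Scr by limma, 12 in each direction, against 51.6% of all genes, with a median log2 fold change of -0.12. The integrin activators were exchanged: FERMT2 (kindlin-2) had 100.4 and 86.5 TPM in UM-UC-3 Scr and 10.4 and 10.1 TPM in RT112 Scr, and FERMT1 (kindlin-1) had 9.83 and 9.74 TPM against 88.5 and 78.4 TPM. PARVB, an adaptor of integrin-linked kinase, had 50.9 and 50.9 TPM against 0.16 and 0.24 TPM, and the kinase SRC had 2.59 and 3.84 TPM against 137 and 142 TPM. Of 21 hemidesmosome and basement membrane genes, 11 were higher in RT112 and 3 in UM-UC-3, with a median of 0.62. Over all genes tested, 25.3% were called higher in RT112 and 26.3% higher in UM-UC-3. COL4A2, a collagen IV chain of the basement membrane, had 43.0 and 45.3 TPM against 141 and 141 TPM, and HSPG2, the proteoglycan perlecan, had 5.72 and 6.32 TPM against 21.4 and 21.04 TPM. Among 27 tested of 37 other integrin ligands, 9 were called in each direction, against the same 25.3% and 26.3% of all genes, with a median of 0.11. Thrombospondin-1 (THBS1) had 3.32 and 4.86 TPM against 299 and 293 TPM, and osteopontin (SPP1) was listed at 0 in both UM-UC-3 Scr libraries with 39.9 and 47.5 TPM in RT112 Scr. PLAU, the gene for the plasminogen activator urokinase, was at 558 and 532 TPM against 69.7 and 73.4 TPM. Vitronectin (VTN), named after its values were seen because PAI-1 binds it, was at most 0.16 TPM in any library. Each gene named here other than VTN passed the limma adjusted test between the lines. With siPAI-1, 0 genes of these 3 lists passed the limma adjusted test in either line. Before adjustment, the lists in the order given had 4, 3 and 0 genes with a p under 0.05 in the UM-UC-3 comparison (6.01% of all genes), and 3, 1 and 0 genes in that of RT112 (5.77%).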

How the data were processed

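RNA-seq was analysed for UM-UC-3 and RT112 with Scr or siPAI-1, with 2 libraries per group assigned by their labels. Stranded mRNA libraries were read in single reads of 75 bases. The authors deposited TPM values and FPKM values per gene, given to 2 decimals. The authors' methods name cutadapt, STAR, featureCounts and DESeq2, while the submitters' processing notes name STAR 2.5.0, RSEM 1.2.25 and GRCh38, and the program behind the values stays unknown. The authors' DESeq2 takes counts. The TPM values are no counts and were tested on a log scale. All 92 ERCC spike-in entries were at 0 and were left out.

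All tests were two-sided and made with limma 3.58.1 in R 4.3.3 (lmFit and eBayes with a trend) on log2(TPM + 0.1) for genes not at 0 throughout the libraries of a fit, with Benjamini-Hochberg adjustment. Each comparison of 2 groups used its own 4 libraries, and the interaction used all 8. Depth was estimated as the number of reads, between 8 and 75 M, that brings FPKM values of short genes closest to whole reads; 76.9% to 81.2% of values then lay within 0.15 of a whole number. Estimated reads per gene were derived from the FPKM values, the longest transcript and the estimated depth. They carry the error of rounding, length and depth as well as counting error. Python 3.11.15, pandas 2.3.3, numpy 2.4.6 and, for plots, matplotlib 3.10.9 were used.

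All 36 members are accounted for, with values in every library for those that reach a group mean of 1 TPM, and other lists by their 4 smallest p at most. The members and lists were chosen with earlier results of these data known. The alternatives run were FPKM, a pseudocount of 1 or 0.01 TPM, rescaling by the median ratio, a mean of at least 1 TPM, 1 fit over all 8 libraries, a replicate block, no trend, and each replicate left out. Promoters came from RefSeq (26 of 36 members matched). ChIP-seq data of the study were not used. Values of some genes that are no members are not reported here.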

Additional observations from a re-analysis of the deposited data

How the results depend on the processing

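No member called between the lines changed its direction under any alternative run; directions of members that were not called were not followed in full. In the line contrast the 15 members kept under all alternatives with Scr were ITGA2, ITGA3, ITGA4, ITGA5, ITGA6, ITGAL, ITGB1, ITGB3, ITGB4, ITGB6, LAMA1, LAMA3, LAMA4, LAMB3 and LAMC3, and with siPAI-1 13 of 24 were kept. Leaving out each replicate in turn, where the remaining library is assumed to vary like the others, gave 9 to 11 members higher in RT112 and 8 to 11 higher in UM-UC-3 with Scr, where 14 and 12 were called with all libraries, and 5698 to 6564 genes in place of 9909. With siPAI-1 it gave 9 to 12 and 6 to 11 members in place of 12 and 12, the 6 without UM-UC-3 siPAI-1 replicate 2, and 5294 to 7142 genes in place of 10108; fewer libraries are a part of these fits' construction. In the knock-down, members at an unadjusted p under 0.05 numbered 2 to 8 in UM-UC-3 and 2 to 8 in RT112 (8 without RT112 siPAI-1 replicate 2), and 3 to 8 in the interaction, where 0 to 123 genes passed the adjustment (44 without UM-UC-3 siPAI-1 replicate 1, 20 without RT112 siPAI-1 replicate 1 and 123 without RT112 siPAI-1 replicate 2). With genes of a mean of at least 1 TPM alone, UM-UC-3 had 4 members at an unadjusted p under 0.05 and 1 gene past the adjustment. RT112 had 4 such members with a pseudocount of 0.01 TPM, with FPKM and without trend, and 2 genes past the adjustment in 1 fit over all 8 libraries. Without trend 7 genes passed in the interaction. The cause of these shifts was not tested.

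Same-numbered replicates did not deviate together (correlations of 0.014, -0.036, 0.044 and -0.043). Whether they share more than a number cannot be told from this. With a replicate block the members called were 14 and 12 (Scr) or 12 and 12 (siPAI-1). There 6, 2 and 8 members had an unadjusted p under 0.05 in the UM-UC-3, RT112 and interaction tests, and 0 passed the adjustment. For the alternatives, the share of all genes at an unadjusted p under 0.05 is not given. Their member counts at that threshold are therefore not set against a background. Rescaling by the median ratio shifted the median of all genes by at most 0.042 on the log2 scale. Depth limits the low members: in UM-UC-3 the level of ITGB6 rests on an estimated 8 to 17 reads per library.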
